A study of Sus scrofa with 8 samples.

Results

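The nuclear-encoded respiratory chain genes are the genes of the cell nucleus that specify subunits of the oxidative phosphorylation complexes of mitochondria. They were taken from the count table by pig Ensembl symbol: every row outside the mitochondrial genome named NDUFA, NDUFB, NDUFC, NDUFS or NDUFV with a number (complex I), SDHA to SDHD (complex II), UQCR or CYC1 (complex III), COX4 to COX8 (complex IV) or ATP5 (ATP synthase, complex V). The rule found 63 of the 24358 rows, with 28 genes of complex I, 4 of complex II, 7 of complex III, 13 of complex IV and 11 of complex V.

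Complexes I and II pass electrons from NADH and succinate to ubiquinone, complex III hands them to cytochrome c, complex IV reduces oxygen, and ATP synthase uses the proton gradient that complexes I, III and IV build. Apart from complex II, each complex joins subunits made from nuclear genes with a few made from the mitochondrial genome. Pluripotent stem cells rely strongly on glycolysis, and the balance between glycolysis and respiration is known to differ between naive and primed states.

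RNA sequencing was done on pig induced pluripotent stem cells, derived by doxycycline-inducible reprogramming of embryonic fibroblasts, to ask how the transcription factor IRF-1 alters their transcripts. The IRF-1 overexpressing cells carried a piggyBac vector with flag-tagged IRF1 behind the CAG promoter (PB-CAG-IRF1-Flag), and the control cells carried the vector with the tag alone (PB-CAG-Flag). Puromycin selection followed in each case, so each culture is a selected population of transfected cells with no picking of clones described. Doxycycline in the medium keeps the introduced reprogramming factors switched on in this line. The labels name LCDMV as the culture system and the methods a medium with LIF, 2 inhibitors and doxycycline, domestic pig is given as the breed and adult as the stage, and feeder cells were removed by attachment before RNA extraction. Each group had 2 libraries, overexpressing replicates 1 and 3 and control replicates 6 and 8. The genotype label reads overexpression for all 4 libraries, and the groups follow the study's own naming of the libraries. The depth on genes was 24923319 counts for overexpressing replicate 1, 20858333 for overexpressing replicate 3, 15925429 for control replicate 6 and 17097669 for control replicate 8.

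IRF1 (ENSSSCG00000014277), the gene that was introduced, was checked first, with 8206 and 5485 counts in overexpressing replicates 1 and 3, and with 55 and 56 in control replicates 6 and 8. In CPM (counts scaled to library depth, here after TMM normalisation), its level was 297 ± 47.1 (SD, n = 2) against 3.36 ± 0.225 (SD, n = 2), a log2 fold change of 6.46 (SE 0.21, edgeR adjusted p = 3.65e-05). The IRF1 level thus separated the libraries as the group names do. The vector carries the coding part of the gene, so these reads come from the transgene and the cell's own gene together.

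The cell type was checked with marker lists. Of 8 markers of pluripotent stem cells, 5 had a row, and all 5 were counted in every library, with summed levels of 1233 and 1277 CPM in the overexpressing libraries and of 1479.9 and 1641 CPM in the controls. LIN28A, an RNA-binding protein of pluripotent cells, had the highest level per length among them, with a mean TPM of 1279 (TPM, transcript level: counts divided by exon length and scaled to the same total in each library). LIN28A, CDH1 and ESRRB were called lower in the overexpressing cells and DNMT3B and EPCAM were not called. The naive-state regulator ESRRB had a log2 fold change of -4.19 and LIN28A one of -1.34 (SE 0.31 and 0.17, edgeR adjusted p = 0.000246 and 0.00146). SOX2, SALL4 and TDGF1 had no row under their symbols. The 7 fibroblast or feeder markers with a row (of 8) summed to 143 and 87.3 CPM in the overexpressing libraries and to 204 and 105 CPM in the controls. COL1A2, a collagen chain, was their most abundant gene per length in the overexpressing libraries and PDGFRB, a growth factor receptor, in both controls, and LUM, COL3A1 and POSTN stayed under 1 CPM in all 4 libraries. The 5 muscle markers with a row (of 6) summed to 2.74 and 6.87 CPM against 38.8 and 16.2 CPM, led in the controls by the actin gene ACTC1, and MYOG was at 0 in both overexpressing libraries. Of these marker genes, COL1A2 was called higher and COL1A1, DCN, PDGFRB, ACTC1 and TNNT2 lower. Leaving out overexpressing replicate 1 ended the calls of COL1A2 and TNNT2 (edgeR adjusted p = 0.184 and 0.0502), leaving out overexpressing replicate 3 ended those of TNNT2 and DCN (adjusted p = 0.189 and 0.0557), and TNNT2 did not pass the filter without control replicate 6. Without control replicate 8, 1 of the 2 uncalled pluripotent markers was called higher and 3 muscle markers lower. In bulk RNA, fewer cells of a type and less RNA per cell cannot be told apart. The part of these marker differences in the values below was not tested.

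Few respiratory chain genes were called, and those that were called were higher in the overexpressing cells. Of the 63 genes, 58 passed the filter on low counts. In the quasi-likelihood test of edgeR, adjusted by Benjamini-Hochberg over all 13250 genes tested, 5 of the 58 were called higher at an adjusted p under 0.05 and 0 were called lower. Over all genes tested, 13.9% were called higher and 15.5% lower, so the share of respiratory chain genes called higher, 8.62%, was below that of the table as a whole in this fit. Without a filter on low counts it was above it, at 15.3% beside 12.9%. At an unadjusted p under 0.05, 10 members (17.2%) were higher and 0 lower in edgeR, beside 19.5% and 21.2% of all genes. At an adjusted p under 0.05, DESeq2 and limma-voom each called 7 higher (12.1%) and 0 lower, beside 13.8% and 14.0% of all genes higher. With a log2 fold change of at least 1 required as well, 0 of the 58 were called in either direction, beside 8.61% of all genes higher and 10.6% lower. The log2 fold changes of the 58 ran from -0.70 to 0.93, and 52 of them were under 0.5 in size.

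The values of the members nevertheless leaned to one side. The log2 fold change was above 0 for 48 of the 58 and below 0 for 10, with a median of 0.24 beside 0.00 over all genes tested. Both overexpressing libraries were above both controls for 32 members (55.2%) and below both for 7, while over all genes tested the corresponding shares were 34.8% and 33.8%. The median was 0.23 in complex I, 0.07 in complex II, 0.18 in complex III, 0.30 in complex IV and 0.25 in complex V. Summed over the 63 genes, the level was 12376 and 13060.3 CPM in overexpressing replicates 1 and 3 and 11501 and 9871 CPM in control replicates 6 and 8. The sums of both overexpressing libraries lay above those of both controls, and the controls differed from each other more than the overexpressing libraries did. The p-values measure only the spread between these 4 libraries, since the labels do not say whether they came from separate cultures.

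**Figure D1:**
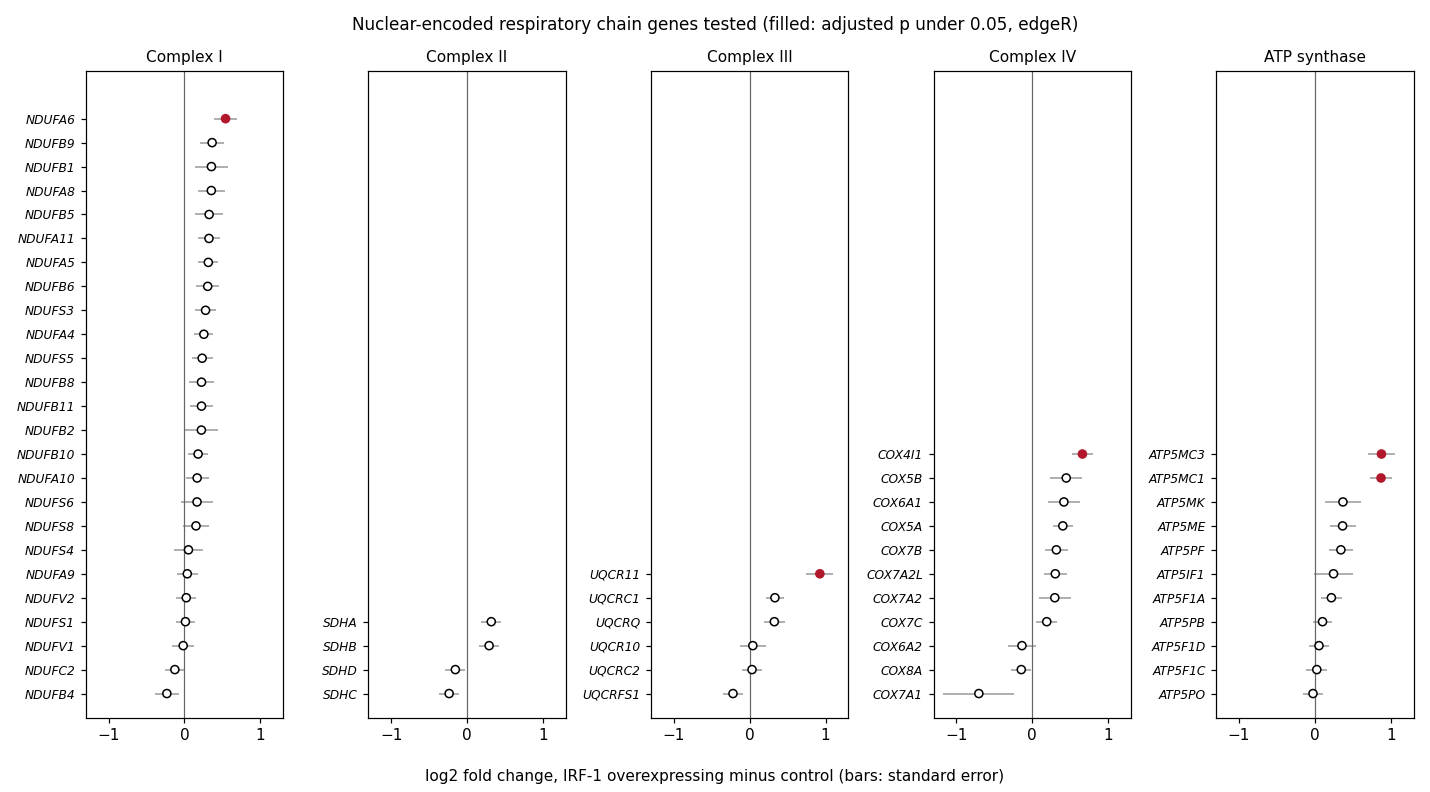
Log2 fold change (x axis, IRF-1 overexpressing minus control) of 57 of the 58 tested nuclear-encoded respiratory chain genes, listed by complex, with bars for the standard error and filled points for genes with an edgeR adjusted p under 0.05. The 5 filled points lie between 0.54 and 0.93, and 47 of the 57 points lie above 0.

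The number of calls rested on which control library was used. Control replicate 8 was below control replicate 6 for 46 of the 58 tested members, with a median log2 difference of -0.25 beside -0.02 over all genes tested, whereas overexpressing replicate 3 differed from replicate 1 by a median of 0.07. Without control replicate 6, 25 members (43.1%) were called higher, beside 14.7% of all genes, and the median log2 fold change was 0.35. Without control replicate 8, 6 (10.3%) were called, beside 15.3% of all genes, and the median was 0.11. Without overexpressing replicate 1 the count was 2 (3.45%), beside 6.35% of all genes, with a median of 0.31, and without overexpressing replicate 3 it was 3 (5.17%), beside 9.80%, with a median of 0.21. In these 4 fits 0 members were called lower. By complex, 9, 1, 2, 6 and 7 genes of complexes I to V were called without control replicate 6. The medians by complex were then 0.37, 0.07, 0.25, 0.45 and 0.51 in that order. Without control replicate 8 they were 0.10, 0.03, 0.13, 0.14 and 0.10. They were 0.31, 0.12, 0.28, 0.32 and 0.29 without overexpressing replicate 1, and 0.18, 0.04, 0.12, 0.29 and 0.26 without overexpressing replicate 3.

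By median, control replicate 8 was furthest below control replicate 6 in the shortest class of exon length, counted over all annotated exons of a gene. Single members departed from this, with log2 differences of -0.68 for NDUFB2 (3253 bases) and 0.06 for NDUFA4 (605 bases). Among the 15 tested members with an exon length under 1000 bases, the median log2 difference between control replicates 8 and 6 was -0.33 and the median log2 fold change between groups was 0.30. Among the 25 members of 1000 to under 3000 bases these medians were -0.25 and 0.30, and among the 18 of 3000 bases or more -0.09 and 0.15, so that between the groups the medians of the 2 shorter classes were alike. From the shortest class to the longest, the medians between the groups were 0.46, 0.41 and 0.30 without control replicate 6 and 0.18, 0.17 and 0.08 without control replicate 8. In the whole table, at a mean of at least 10 CPM, the 324 genes under 1000 bases had medians of -0.22 between the controls and 0.20 between the groups, the 2315 of the middle class -0.08 and 0.05, and the 6473 genes of 3000 bases or more had medians of 0.04 and -0.01. In each class the median between the controls was lower for the members than for the whole table. The part of exon length in the values of the members was not tested.

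In ATP synthase, the 2 called genes both encode its c subunit, the proton-carrying proteolipid of the membrane rotor. ATP5MC1 (ENSSSCG00000017544, chromosome 12, 25110747 to 25114005) was counted at 322 and 337 CPM in the overexpressing libraries and at 196 and 165 CPM in the controls. ATP5MC3 (ENSSSCG00000015973, chromosome 15, 81090263 to 81094488) was at 543 and 523 CPM against 341 and 239 CPM. For both genes the overexpressing libraries were close to each other and above both controls, and control replicate 8 was the lowest. The group means were 329.8 ± 10.5 and 180.2 ± 22.0 CPM (SD, n = 2) for ATP5MC1, a log2 fold change of 0.87 (SE 0.14, edgeR adjusted p = 0.00392). For ATP5MC3 they were 533 ± 14.2 and 290.1 ± 71.9 CPM (SD, n = 2), a log2 fold change of 0.88 (SE 0.18, edgeR adjusted p = 0.00973). Without overexpressing replicate 1 the call of ATP5MC3 was lost (adjusted p = 0.0508). The genes are paralogs whose mature peptides are alike, so reads from their coding parts may have been shared between them, and 33.5% of the exon bases of ATP5MC3 are also exon bases of ATF2 on the same strand. ATF2 itself was at 55.5 and 53.6 CPM against 57.1 and 61.9 CPM and was not called. ATP5MC2, the remaining c subunit gene, had no row under its symbol.

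The other 9 genes of ATP synthase were not called. ATP5F1A, which encodes the alpha subunit of the catalytic head, had the highest mean level per length in the complex, 1262 TPM. Its level was 1624 and 1751 CPM in the overexpressing libraries against 1585 and 1317 CPM in the controls, a log2 fold change of 0.22 (SE 0.14, edgeR adjusted p = 0.278). Both overexpressing libraries were above both controls, but overexpressing replicate 1 exceeded control replicate 6 by less than the controls differed from each other. Without control replicate 6 the gene was called (0.36, adjusted p = 0.0338), and without control replicate 8 its log2 fold change was 0.10. ATP5IF1, the inhibitor that blocks the enzyme when it runs backwards, was at 184 and 182 CPM against 199 and 109.6 CPM, so that only control replicate 8 stood apart, and without control replicate 6 the gene was called (0.74, adjusted p = 0.0029), while without control replicate 8 the direction turned (-0.11, adjusted p = 0.56). ATP5PO, the stalk protein that ties the head to the membrane part, was at 282 and 305 CPM against 300.0 and 296 CPM, with overlapping groups.

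**Figure D2:**
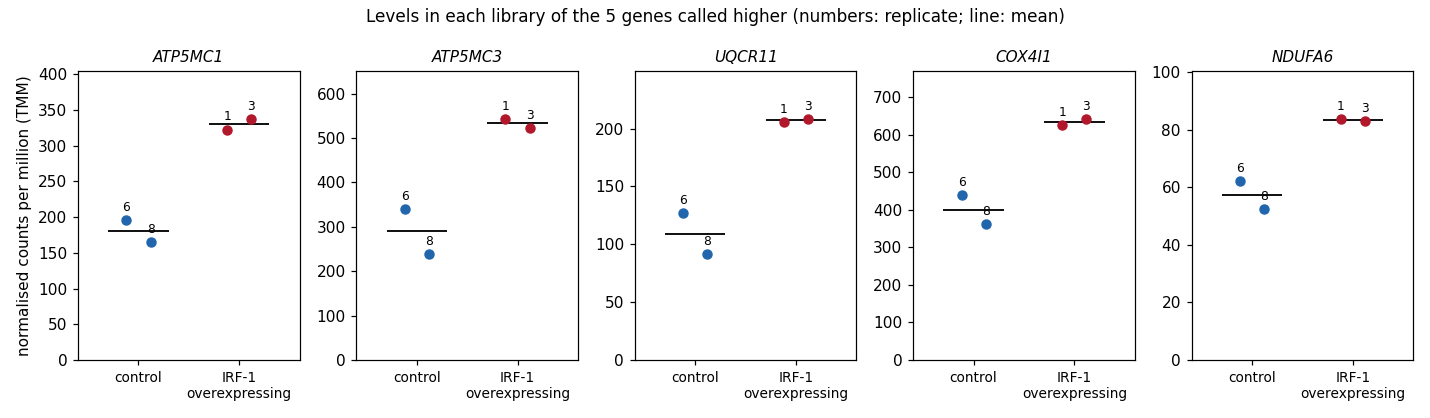
Normalised level (y axis, CPM, from 0) of the 5 respiratory chain genes called higher, with a point for each library labelled by replicate and a line for the mean of each group. Both overexpressing libraries lie above both controls for every one of the 5 genes, and control replicate 8 is the lowest library for each.

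In complex III, UQCR11 (ENSSSCG00000013436, chromosome 2, 76903233 to 76906429), which encodes a small accessory subunit, had the highest log2 fold change of all 58 tested members. It was at 206 and 208 CPM in the overexpressing libraries and at 127 and 91.2 CPM in the controls. The overexpressing libraries were almost equal and stood above both controls. The means were 207 ± 1.65 and 109.1 ± 25.2 CPM (SD, n = 2), a log2 fold change of 0.93 (SE 0.18, edgeR adjusted p = 0.00766), and the call held whichever library was left out. UQCR11 also had the highest mean level per length of the 6 tested genes of the complex, 693 TPM. None of its exon bases is shared with another gene.

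The other 5 tested genes of complex III were not called. UQCRC1, a core protein on the matrix side, was at 537 and 555 CPM against 440.1 and 427 CPM, with a log2 fold change of 0.33 (SE 0.12, edgeR adjusted p = 0.079), and without control replicate 6 it was called (0.35, adjusted p = 0.0496). UQCRFS1, the Rieske iron-sulfur protein that takes electrons from ubiquinol, was at 324 and 345 CPM against 384 and 395 CPM, a log2 fold change of -0.22 (SE 0.13, edgeR adjusted p = 0.233). UQCRC1 and UQCRFS1 thus had non-overlapping groups in opposite directions, neither past the threshold. UQCRC1 and UQCRFS1 are given as examples chosen after their values were seen. CYC1, the cytochrome c1 that passes electrons on to cytochrome c, had 0 counts in all 4 libraries.

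In complex IV, COX4I1 (ENSSSCG00000029034, chromosome 6, 3131019 to 3137482), the ubiquitous form of subunit 4 that helps set the activity of the enzyme, was called higher. Its level was 625 and 642 CPM in the overexpressing libraries against 439 and 363 CPM in the controls. Every overexpressing value lay above every control value. The means were 634 ± 12.1 and 401 ± 53.8 CPM (SD, n = 2), a log2 fold change of 0.66 (SE 0.14, edgeR adjusted p = 0.0111). With a mean of 1687 TPM it had the highest level per length of the 58 tested members. The call was lost without overexpressing replicate 1 (adjusted p = 0.0719) and without overexpressing replicate 3 (adjusted p = 0.0692). COX4I2, the form of subunit 4 known from lung and low oxygen, had no count with overexpression, 3 counts in control replicate 6 and 1 in control replicate 8, at or under the floor of 3 counts, so no fold is given.

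The other forms of complex IV subunits with a tissue-restricted partner showed the ubiquitous form far above the restricted one. COX6A1, the ubiquitous form of subunit 6A, was at 429.6 and 476 CPM against 413 and 265 CPM, and its heart and muscle form COX6A2 at 18.6 and 22.3 CPM against 22.3 and 22.6 CPM. Per length, the mean levels were 202 TPM for COX6A1 and 19.9 TPM for COX6A2. COX7A2, the widely expressed form of subunit 7A, had 4893, 4161, 3094 and 2188 counts in overexpressing replicates 1 and 3 and control replicates 6 and 8, with a mean of 826 TPM, and the heart and muscle form COX7A1 had 35, 46, 60 and 36 counts in the same order, with a mean of 2.59 TPM. None of the 4 genes was called. The log2 fold change was 0.42 (SE 0.21) for COX6A1, 0.30 (SE 0.21) for COX7A2, -0.14 (SE 0.19) for COX6A2 and -0.70 (SE 0.47) for COX7A1, the lowest of all members and the one with the largest error. COX7A1 was at -0.40 without overexpressing replicate 1 and at -0.19 without control replicate 6, when SDHC was lower, and at -1.08 without control replicate 8. COX6A2 was at 0.00 without overexpressing replicate 1 and at -0.26 without overexpressing replicate 3. Without control replicate 6, COX6A1 and COX7A2 were called higher (log2 fold changes 0.77 and 0.66, edgeR adjusted p = 0.0017 and 0.00491), while without control replicate 8 the values were 0.14 and 0.01 (adjusted p = 0.442 and 0.959). COX6A1 shares 44.2% and COX7A1 24.8% of exon bases with other genes. COX6B2, the testis form of subunit 6B, had 0 counts in all libraries and shares no exon base with another gene. Its level was thus under the 3-count floor, 0.12 to 0.188 CPM by library totals without TMM, counting error only.

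COX7B, a subunit needed for assembly of the enzyme, was at 187 and 195 CPM against 169 and 138 CPM (log2 fold change 0.32, SE 0.15, edgeR adjusted p = 0.158), and without control replicate 6 it was called (0.47, adjusted p = 0.0261), while without control replicate 8 the value was 0.19 (adjusted p = 0.334). COX8A, the ubiquitous form of the small subunit 8, was at 294 and 306 CPM against 352 and 311 CPM, with both overexpressing libraries below both controls and a log2 fold change of -0.14 (SE 0.13, edgeR adjusted p = 0.458), or -0.05 without control replicate 6 and -0.22 without control replicate 8. With a mean of 1505 TPM it was close to COX4I1 in level per length. COX5A, on the matrix side of the enzyme, was at 259 and 273 CPM against 194 and 209 CPM and is named here after its values were seen. Its log2 fold change was 0.40 (SE 0.13, edgeR adjusted p = 0.0539), so the gene fell just short of a call. It was called by DESeq2 and limma-voom, by edgeR without a filter and with at least 10 counts in every library, and by edgeR without control replicate 8 (0.46, adjusted p = 0.0233). COX6B1, COX7B2 and COX8H had no row under their symbols.

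Complex II is the only complex made wholly from nuclear genes, and 0 of its 4 genes were called. SDHA, the flavoprotein that oxidises succinate, was at 417 and 452 CPM in the overexpressing libraries and at 369.7 and 327 CPM in the controls. SDHB, the iron-sulfur subunit, was at 141 and 152 CPM against 116 and 123 CPM. Both overexpressing libraries were above both controls for these subunits of the soluble head. SDHC and SDHD, the membrane anchors that hold the quinone site, were at 97.4 and 102 CPM against 114 and 122 CPM, and at 159 and 164 CPM against 184 and 175 CPM. For the anchors both overexpressing libraries were below both controls. Over all genes tested, both overexpressing libraries were above both controls for 34.8% and below both for 33.8%. The log2 fold changes were 0.32 (SE 0.13) for SDHA, 0.29 (SE 0.14) for SDHB, -0.24 (SE 0.14) for SDHC and -0.15 (SE 0.13) for SDHD, with edgeR adjusted p from 0.115 to 0.424. SDHA was called higher without control replicate 6 (0.41, adjusted p = 0.0348). SDHA had the highest mean level per length, 380.4 TPM, and SDHC the lowest, 74.6 TPM. Whether the head and the anchors differ from each other was not tested.

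Complex I held 26 of the 58 tested members and 1 call. NDUFA6 (ENSSSCG00000000045, chromosome 5, 6562051 to 6567647), an accessory subunit of the matrix arm that binds the mitochondrial acyl carrier protein, was at 83.7 and 82.9 CPM in the overexpressing libraries and at 62.1 and 52.3 CPM in the controls. The overexpressing libraries were nearly equal and above both controls. The means were 83.3 ± 0.567 and 57.2 ± 6.99 CPM (SD, n = 2), a log2 fold change of 0.54 (SE 0.15, edgeR adjusted p = 0.028). The call was lost without overexpressing replicate 1 (adjusted p = 0.166) and without overexpressing replicate 3 (adjusted p = 0.131). NDUFA4 is grouped here by its name but is now counted as a subunit of complex IV. It had the highest mean level per length of the 26 tested members, 1182 TPM. Its level was 311 and 309 CPM against 254 and 265 CPM, a log2 fold change of 0.26 (SE 0.13, edgeR adjusted p = 0.17).

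The 6 core subunits of complex I with a row, which carry out the transfer of electrons, had a median log2 fold change of 0.09, and the 20 other tested subunits a median of 0.23. These medians were 0.17 and 0.40 without control replicate 6, 0.17 and 0.33 without overexpressing replicate 1 and 0.05 and 0.14 without control replicate 8. NDUFS1, NDUFV1 and NDUFV2, which line the path of electrons from NADH, had log2 fold changes of 0.01, -0.02 and 0.02 with standard errors of 0.13, 0.15 and 0.13. Among the subunits named NDUFB, which sit in the membrane arm, 9 were tested, 0 were called (5 without control replicate 6), and log2 fold changes ran from -0.23 to 0.37. NDUFB4, at 71.6 and 73.1 CPM against 94.9 and 75.0 CPM, was the lowest of complex I and of the NDUFB genes with all 4 libraries. Its log2 fold change was -0.23, but -0.05 without control replicate 6 and -0.38 without control replicate 8. NDUFB4 is named after its values were seen. The difference between core and other subunits was not tested.

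Of the 63 members, 5 could not be tested. COX4I2 was at the floor, COX6B2 had no counts, and NDUFA2, NDUFB7 and CYC1 were at 0 in all 4 libraries while their exons lie under another gene. NDUFA2, an accessory subunit of complex I, shares 100% of its exon bases with TMCO6 on the opposite strand, NDUFB7, a membrane arm subunit, 100% with the unnamed gene ENSSSCG00000031299, and CYC1 99.0% with SHARPIN. The partners did have reads: TMCO6 stood at 58.6 and 61.8 CPM against 48.6 and 54.2 CPM, ENSSSCG00000031299 at 41.3 and 48.6 CPM against 65.5 and 48.8 CPM, and SHARPIN at 45.6 and 52.1 CPM against 48.2 and 39.0 CPM. In the table as a whole, 109 of 129 named genes with at least 95% of their exon bases shared were at 0 in all libraries (84.5%), compared with 928 of 10759 named genes that share none (8.63%). The 0 of NDUFA2, NDUFB7 and CYC1 therefore gives no level for these transcripts. In all, 26 of the 63 members share at least 1 exon base with another gene, and among the 37 that share none, 35 were tested, 3 were called higher and the median log2 fold change was 0.23. A separate list of 83 textbook subunit symbols does not match the members exactly. It had a row for 29 symbols of complex I and 12 of complex IV, beside 28 and 13 members. Of its symbols, 20 had no row, among them the core subunit gene NDUFS7 and ATP5F1B, the catalytic beta subunit.

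The members lie on 18 chromosomes, at most 11 on one (chromosome 2), and 2 on the X chromosome. The mean level per length of the 58 tested members ran from 2.59 TPM for COX7A1 to 1687 TPM for COX4I1, with a median of 218 TPM, and the genes with the highest level in each complex were NDUFA4, SDHA, UQCR11, COX4I1 and ATP5F1A. The 13 protein-coding genes of the mitochondrial genome, the partners of these subunits in complexes I, III, IV and V, had 5 calls higher (38.5%) and 0 lower, at a median log2 fold change of 0.33, and without overexpressing replicate 1 none of them was called (3 without overexpressing replicate 3, 9 without control replicate 6). Of all genes, 13.9% were called higher with all 4 libraries, and 6.35%, 9.80% and 14.7% in these 3 fits. All mitochondrial genome rows took 8.62% and 7.57% of the counts in the overexpressing libraries against 6.29% and 6.68% in the controls.

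Genes that build or serve the respiratory chain were counted by list, and 13.9% of all genes were called higher and 15.5% lower beside them. Of the assembly factors, 2 of 15 tested (13.3%) for complex I were called higher and 1 lower, 0 of 1 for complex II, 0 of 6 for complex III and 0 of 4 for ATP synthase in either direction, and 3 of 14 (21.4%) for complex IV higher and 0 lower. COX17, the chaperone that brings copper to complex IV, was at 126 and 107.0 CPM against 64.6 and 28.7 CPM (log2 fold change 1.32, SE 0.33, edgeR adjusted p = 0.0209), with 42.6% of its exon bases shared, and its log2 fold change was 2.02 if control replicate 6 was left out and 0.86 if control replicate 8 was. SCO1, which inserts copper next, had a log2 fold change of 0.73, NDUFAF4 of complex I assembly 0.67 and DMAC2 -0.45. Of 17 regulators of mitochondrial biogenesis, 3 were called higher (17.6%) and 0 lower. PPARGC1A, the coactivator of mitochondrial biogenesis, was at 40.5 and 31.0 CPM against 12.9 and 21.7 CPM (log2 fold change 1.04, SE 0.27, edgeR adjusted p = 0.0243). TFB1M, called higher in the same list, had a log2 fold change of 0.66. NRF1, a factor that binds promoters of many respiratory chain genes, and TFAM, which packages mitochondrial DNA, were not called (0.22 and 0.32, adjusted p = 0.376 and 0.144). Their values were 0.06 and 0.20 without control replicate 6, and that of NRF1 was 0.41 without control replicate 8. Of 61 tested mitochondrial ribosomal proteins, 9 were called higher (14.8%), from MRPL4 (0.44) to MRPS18B (0.70), and 0 lower, with a median of 0.29. The higher calls of the ribosomal proteins, the regulators and the assembly factors of complexes I, III and IV depended on which library was left out. The regulators had a median log2 fold change of 0.26 with all 4 libraries. It was 0.29 without overexpressing replicate 1, 0.23 without overexpressing replicate 3, 0.12 without control replicate 6 and 0.39 without control replicate 8. In the same order the median was 0.31, 0.27, 0.30 and 0.25 for the ribosomal proteins. Complex IV assembly had a median of 0.38 with all 4 libraries, and 0.38, 0.32, 0.37 and 0.14 in that order.

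Of 19 enzymes of pyruvate entry and the citric acid cycle, which feed electrons to the chain, 2 were called higher (10.5%) and 1 lower. Citrate synthase CS had a log2 fold change of 0.58 and pyruvate carboxylase PC of -1.10, with PC at 190.1 and 210.0 CPM against 514 and 346 CPM. Of 7 tested carriers and cytochrome c, 0 were higher and 1, the proton carrier UCP2, was lower (-0.95). Of 7 tested genes of a list tied to hypoxia (not all of them genes of respiration), 0 were called higher by edgeR and 3 (42.9%) lower. Over all genes tested, 13.9% were called higher and 15.5% lower. The lower calls ran from the growth factor VEGFA (-1.42) to the mitophagy receptor BNIP3L (-0.51), and the median of the list was -0.51. The log2 fold change was below 0 for 5 of the 7 and above 0 for 2. Those 2 were PDK1 (0.46) and LONP1 (0.42), named here after their values were seen (edgeR adjusted p = 0.0675 and 0.0522). DESeq2 and edgeR without a filter called 2 of this list higher, beside 13.8% and 12.9% of all genes. By limma-voom, by edgeR without mitochondrial genome rows and with at least 10 counts in every library, 1 was called higher. The shares of all genes called higher were then 14.0%, 14.0% and 12.5%. The calls of the enzymes and of the hypoxia list depended on which library was left out. Without overexpressing replicate 1 the median of the hypoxia list was -0.45, and without overexpressing replicate 3 it was -0.57. Without control replicate 6 it was -0.36, and without control replicate 8 it was -0.64. Leaving out overexpressing replicate 1 ended the calls of COX17, SCO1, NDUFAF4, DMAC2, PPARGC1A, TFB1M, MRPL4, MRPS18B, CS, UCP2 and BNIP3L (edgeR adjusted p from 0.0636 to 0.293). Leaving out overexpressing replicate 3 ended those of NDUFAF4, DMAC2, TFB1M, MRPL4, UCP2, VEGFA and BNIP3L, leaving out control replicate 6 those of NDUFAF4, DMAC2, TFB1M, VEGFA (then at -0.72) and BNIP3L, and leaving out control replicate 8 those of MRPL4 and UCP2, while TFAM was then called (adjusted p = 0.0307). The call of PC held in each of these fits.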

How the data were processed

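Per the labels and methods, reads were mapped to Sus scrofa 11.1 with HISAT2, and the authors deposited unnormalised read counts for each gene, made with featureCounts 1.6.4, with exon lengths. Neither strandedness nor the handling of multi-mapped reads is stated. The members, gene lists and alternatives were chosen with earlier results of these data known. Counts were tested in edgeR 4.0.16 (R 4.3.3) with TMM factors, filterByExpr by group, the quasi-likelihood test and Benjamini-Hochberg adjustment over 13250 genes, after testing on simulated data. The standard error is the size of the log2 fold change divided by the square root of F. TPM was computed from counts and exon length. Shared exon bases were counted from the deposited exon coordinates. Genes are named by Ensembl identifier from the table of gene names, in which 14692 of 24358 rows had a symbol.

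The genes named are IRF1, the member with the highest mean TPM in each complex, in each complex the 2 highest and the 2 lowest called members with non-overlapping groups, called members whose log2 fold change reached 1 in either direction (0 found), complex IV isoform pairs, CYC1 and SDHA to SDHD, and of each other list the called genes with the highest and lowest log2 fold change plus PPARGC1A, NRF1 and TFAM. Other members, among them ATP5IF1, ATP5PO, NDUFS1, NDUFV1, NDUFV2, NDUFB4, UQCRC1, UQCRFS1 and COX5A, were named outside this rule after their values were seen. So were PDK1 and LONP1 of the hypoxia list. Depths ran from 15925429 to 24923319 counts, and 1 count was worth 0.0401 to 0.0628 CPM by library totals without TMM. Alternatives were RLE, upper-quartile and library-total scaling, no mitochondrial genome rows, 2 other filters, DESeq2 1.42.0, limma-voom (limma 3.58.1), a fold minimum and each library left out. The level of 1 tested member is not reported here. The ChIP libraries were not used, and promoter motifs were not searched, since no promoter sequences were at hand. Tables and figures were made with pandas 2.3.3, numpy 2.4.6 and matplotlib 3.10.9.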

Additional observations from a re-analysis of the deposited data

How the results depend on the processing

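With RLE, upper-quartile or library-total scaling and without mitochondrial genome rows, 5 members were called higher, the same 5 genes as in the report. With at least 10 counts in every library 6 were called, and DESeq2 and limma-voom each called 7, all with those 5 among them. Without a filter 9 of 59 were called (15.3%, beside 12.9% of all genes), again with those 5. With a log2 fold change of at least 1 also required the count was 0. With only the members that share no exon base, an alternative chosen after seeing the data, 3 of 35 were called. Leaving out 1 library gave counts from 2 to 25 and medians of the log2 fold change from 0.11 to 0.35, and with 1 library left in a group that library is assumed to vary like the other group. Across the other alternatives the median ran from 0.23 to 0.26. Members called lower were 0 under every alternative. The median of all genes moved by less than 0.1 under each scaling.

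COX6A1 was called higher without a filter (0.44, edgeR adjusted p = 0.0367). DMAC2 and BNIP3L were not called with at least 10 counts in every library, MRPL4 was not called with upper-quartile or library-total scaling, VEGFA was not called by limma-voom (adjusted p from 0.0507 to 0.0586 in these), and TNNT2 was not called by DESeq2 (adjusted p = 0.102). TNNT2 and DCN were not tested with at least 10 counts in every library. Without a filter, 8 of the 13 protein-coding mitochondrial genome genes were called higher, beside the share of all genes given above for that setting. The cause was not tested. No paired analysis was possible because the groups share no replicate number.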
